A study of Mus musculus with 12 samples.

Results

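Laminins are the cross-shaped proteins of basement membranes, and the 9 genes described here encode 5 alpha chains (Lama1 to Lama5), 3 beta chains (Lamb1 to Lamb3) and 1 gamma chain (Lamc1). They were chosen by name, at the transcript cluster (the probe group of a gene on the array) that carries exactly that gene symbol. All 9 had such a cluster, 9 of the 23410 clusters with a gene symbol on the arrays. Whole-lung RNA had been measured on Affymetrix MoGene 1.0ST v1 arrays in 12 mice, 1 array per mouse and 3 mice per group. The study asked how loss of Fra-1, a subunit of the AP-1 transcription factor encoded by Fosl1, alters gene expression in the lung before and after bleomycin, a drug that injures the alveoli and leads to fibrosis.

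The groups were Fra-1+/+ mice given PBS (WTC 76, 157 and 158), Fra-1+/+ mice given bleomycin (WTT 160, 161 and 164), Fra-1Δ/Δ mice, written Fra-1-/- in the labels, given PBS (KOC 53, 55 and 67), and Fra-1Δ/Δ mice given bleomycin (KOT 72, 80 and 81). Bleomycin was 0.075 U in 30 µL of PBS, instilled into the trachea, and the left lung was taken on day 5. All mice had a mixed C57/129S background, and the labels call them females of 2 months, while the methods give a somewhat older age range. Per the methods, the Fra-1Δ/Δ mice carried floxed Fra-1 alleles and a Meox2 (Sox2)-Cre active in the embryo, while the controls carried floxed alleles without Cre, so that the deletion was not limited to 1 lung cell type and the Cre itself also differed between the genotypes. The log2 values of Fosl1 ran from 6.37 to 6.86 in WTC, 7.81 to 8.32 in WTT, 6.26 to 6.68 in KOC and 7.28 to 7.33 in KOT. They do not check the deletion, since it is not given whether the probes lie in the deleted part. On 12 of 12 arrays the sex-linked genes went against the labelled sex. All Fra-1Δ/Δ mice but only WTC 76 among Fra-1+/+ mice had low animal numbers, so that genotype and number cannot be told apart.

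Each laminin is a trimer of 1 alpha, 1 beta and 1 gamma chain, wound together by a coiled coil inside the cell before secretion. The short arms of the trimer join laminins into a sheet outside the cell, to which nidogens, type IV collagen and perlecan attach, and the globular end of the alpha chain binds integrins and dystroglycan at the cell surface. In the alveolus a thin basement membrane, shared in places by the type 1 epithelial cell and the capillary, separates air from blood.

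From the RefSeq promoter table of mouse GRCm38.p6, 6 windows of 250 bases before the start were searched for 5 of the 9 chains (Lamb3 had 2). No window was searched for Lama1, Lama3, Lama4 and Lamc1. For the chains, windows on 1 chromosome were left out of the search, so a chain without a window may still have an entry. Shown are Lamb1 and Lama5, which passed the test in at least 1 genotype, and Lama2, which passed in neither. In capitals are GC boxes, GGGCGG or its reverse CCGCCC.
Lamb1, chr12:31265043-31265292, plus strand: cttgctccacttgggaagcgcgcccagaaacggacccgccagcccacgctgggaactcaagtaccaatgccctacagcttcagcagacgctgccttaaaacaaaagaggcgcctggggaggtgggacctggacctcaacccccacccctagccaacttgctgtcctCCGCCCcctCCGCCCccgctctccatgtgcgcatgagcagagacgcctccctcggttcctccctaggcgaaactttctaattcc
Lama5, chr2:180225860-180226109, minus strand: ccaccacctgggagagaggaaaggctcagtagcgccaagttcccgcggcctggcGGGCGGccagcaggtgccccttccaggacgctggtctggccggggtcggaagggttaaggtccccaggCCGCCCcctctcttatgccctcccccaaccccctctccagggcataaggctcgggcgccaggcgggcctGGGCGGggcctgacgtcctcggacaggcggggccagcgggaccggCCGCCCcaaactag
Lama2, chr10:27616943-27617192, minus strand: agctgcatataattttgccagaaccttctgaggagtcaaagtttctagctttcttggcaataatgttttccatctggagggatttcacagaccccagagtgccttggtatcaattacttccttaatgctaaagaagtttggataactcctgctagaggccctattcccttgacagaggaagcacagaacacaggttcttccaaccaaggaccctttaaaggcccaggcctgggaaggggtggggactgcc
The AP-1 motif TGANTCA, read on both strands, was in 0 of the 6 windows searched. It was in 6.75% of the 32851 windows of the table, from which no chromosome was left out. The chains without a searched window are not covered by these counts. The CRE motif TGACGTCA was in 0 of 6 windows (1.55% of all), the TATA motif TATAAA in 0 of 6 (12.4% of all) and GGGCGG in 2 of 6 (32.7% of all), with 4 matches in Lama5 and 2 in Lamb1. The windows of Lamb2 and Lamb3, not printed, held none of the 4 motifs. These are matches of letters in 250 bases and do not show whether a factor binds there or elsewhere. GC content was 72.4% in the Lama5 window, 62.0% in Lamb1 and 47.2% in Lama2, beside a median of 52.4% over all windows.

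Bleomycin moved the laminin chains apart. Lama3, the alpha chain of alveolar and airway epithelium, fell about 3-fold in both genotypes, while Lama1 rose by 1.67-fold in Fra-1+/+ and 1.62-fold in Fra-1Δ/Δ mice. In Fra-1+/+ mice 4 of the 9 chains rose (Lama1, Lama5, Lamb1 and Lamc1) and 1 fell (Lama3), at a Benjamini-Hochberg adjusted p under 0.05 in a limma fit over all 23410 clusters, in which 10.2% of clusters rose and 11.3% fell. In Fra-1Δ/Δ mice 2 rose (Lama1 and Lama5) and 1 fell (Lama3), where 7.42% of all clusters rose and 7.98% fell. The median log2 fold change over the 9 chains was 0.04 in Fra-1+/+ and -0.01 in Fra-1Δ/Δ mice, beside 0.02 and 0.02 over all clusters. The mean level of the 9 chains lay between 9.30 and 9.36 in WTC and between 9.25 and 9.37 in WTT, which overlap. It lay between 9.40 and 9.46 in KOC, above every WTC mouse, and between 9.24 and 9.41 in KOT, which overlaps both KOC and WTT. In the test that the methods name, local-pooled-error (LPE), which compares group medians at an adjusted p under 0.01, 1 chain passed in Fra-1+/+ mice (Lama3) and 2 in Fra-1Δ/Δ mice (Lama1 and Lama3), beside 7.94% and 8.09% of all clusters in either direction. In whole lung, fewer cells of a type and less RNA per cell cannot be told apart. Levels of different genes come from different probes, so only changes within a gene are compared.

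**Figure D1:**
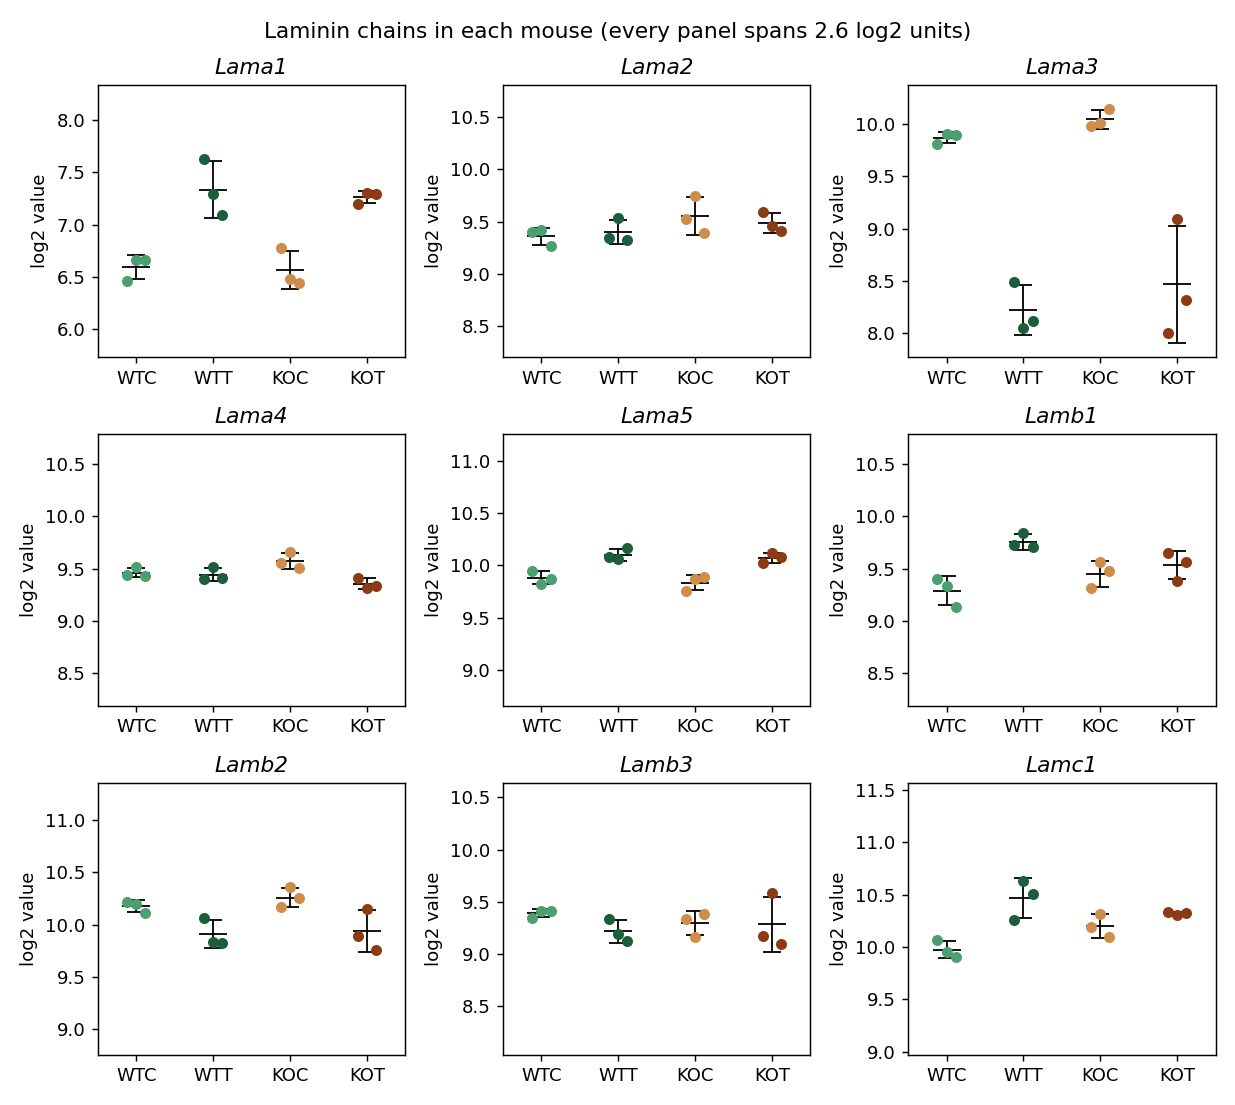
Each panel shows 1 laminin chain, with the log2 value of each mouse as a point, by group, and the group mean and SD (n = 3 mice) as bars, and all panels span the same range. Lama3 drops from between 9.81 and 10.15 with PBS to between 8.0 and 9.09 with bleomycin, Lama1 rises from at most 6.78 to at least 7.09, and the other chains move by less.

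Lama3 (cluster 10453939) pairs with the beta-3 chain in the laminin of hemidesmosomes, which anchors epithelial cells, and its loss in people causes blistering of the skin. Its log2 values were 9.81, 9.91 and 9.89 in WTC and 8.49, 8.05 and 8.12 in WTT. In Fra-1Δ/Δ mice they were 9.98, 10.01 and 10.15 in KOC and 8.0, 9.09 and 8.32 in KOT. Every bleomycin-treated mouse lay below every PBS-treated mouse, and KOT 80 lay highest of the 6 treated mice. The log2 fold change was -1.65 in Fra-1+/+ (SE 0.22, adjusted p = 0.00065, limma), 3.14-fold lower. It was -1.58 in Fra-1Δ/Δ mice (SE 0.22, adjusted p = 0.00128), 2.98-fold lower. The difference between these responses was 0.07, with a 95% interval from -0.60 to 0.75 and an adjusted p of 0.997, and it ran from -0.24 to 0.31 with 1 mouse left out.

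The fall of Lama3 went together with a fall of alveolar epithelial markers. Of 7 markers of type 1 cells, the thin cells of the gas exchange surface, 5 fell and 0 rose in each genotype, such as Rtkn2 (log2 fold change -2.11 in Fra-1+/+ and -1.83 in Fra-1Δ/Δ mice) and Hopx (-1.19 and -1.01). Their mean level lay between 11.69 and 11.91 in WTC and between 10.93 and 11.19 in WTT. In Fra-1Δ/Δ mice it lay between 11.78 and 11.82 in KOC and between 10.92 and 11.37 in KOT. Of 8 markers of type 2 cells, which make surfactant, 6 fell in Fra-1+/+ and 5 in Fra-1Δ/Δ mice, and their mean level went from between 12.41 and 12.42 in WTC to between 11.65 and 12.08 in WTT, and from between 12.51 and 12.57 in KOC to between 11.77 and 12.26 in KOT. Over the 12 arrays the level of Lama3 had a Pearson r of 0.99 with the mean of the type 1 markers and 0.98 with that of the type 2 markers, and of 0.92 with each after the group means were taken off. The points share the arrays and their normalization, so these are descriptions. KOT 80, with the highest Lama3 of the treated mice, also had the highest mean of both marker lists among them. The part of these cells in the change of Lama3 was not tested. The markers of airway basal cells, another epithelial source of Lama3, had 0 of 4 past the test in either genotype. Their changes were above 0 for 4 of 4 in each, unlike that of Lama3, with a median of 0.19 in Fra-1+/+ and 0.33 in Fra-1Δ/Δ mice. The unadjusted p was under 0.05 for 1 in Fra-1+/+ and 2 in Fra-1Δ/Δ mice.

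**Figure D2:**
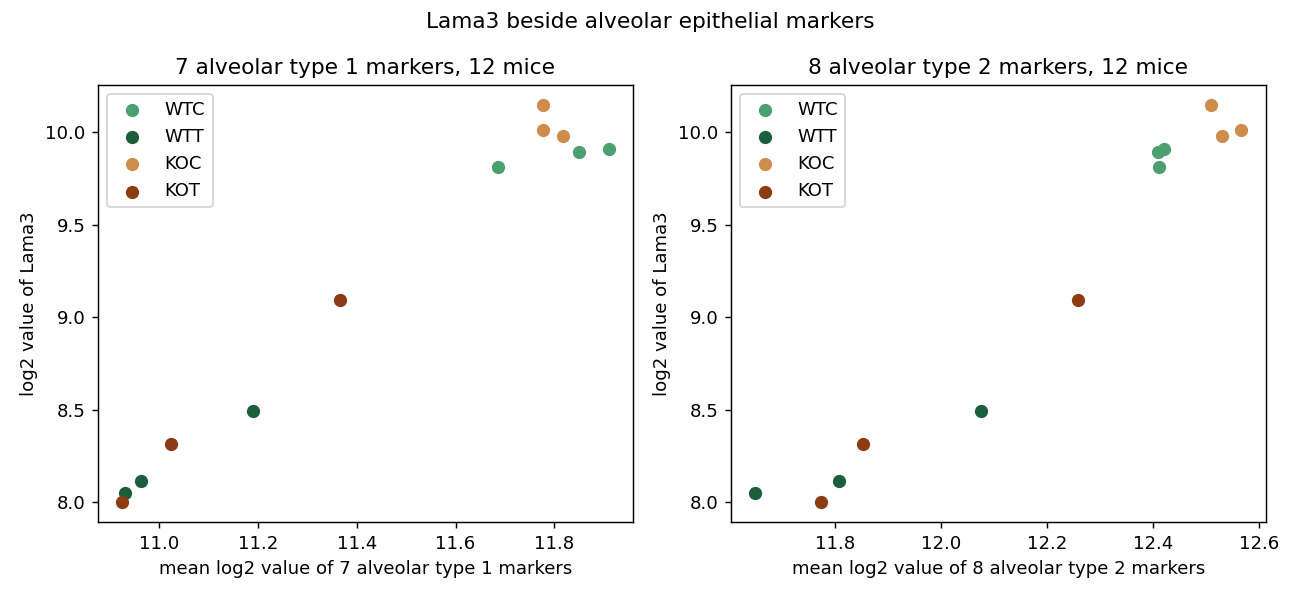
The log2 value of Lama3 is plotted for the 12 mice against the mean log2 value of 7 alveolar type 1 markers (left) and of 8 alveolar type 2 markers (right), with 1 point per mouse and a colour per group. The 6 PBS mice sit at the upper right and the 6 bleomycin mice lie below and to the left of them. Of the bleomycin mice, KOT 80, at 9.09, lies nearest to the PBS mice.

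Lamb3 (cluster 10352838), the beta chain that joins Lama3 in the same trimer, did not follow it. Its log2 values were 9.35, 9.42 and 9.41 in WTC, 9.34, 9.19 and 9.13 in WTT, 9.33, 9.17 and 9.39 in KOC and 9.18, 9.58 and 9.10 in KOT. The WTT mice lay below the WTC mice by little, while KOT 80 was higher than every other mouse. Neither response passed the test, at -0.17 (SE 0.12, adjusted p = 0.343) in Fra-1+/+ and -0.01 (SE 0.12, adjusted p = 0.97) in Fra-1Δ/Δ mice. The 95% intervals ran from -0.43 to 0.08 and from -0.27 to 0.25, and neither reaches the fall of Lama3. Within each array, the value of Lama3 minus that of Lamb3 changed by -1.48 in Fra-1+/+ and -1.57 in Fra-1Δ/Δ mice, with no overlap between treated and control mice (exact two-sided permutation test, p = 0.1 each, the smallest that 20 regroupings of 3 against 3 mice can give). Even so, mice with high Lama3 for their group had high Lamb3. The r between the chains was 0.54 over 12 arrays and 0.86 after the group means were taken off.

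Lama1 (cluster 10446473) is the alpha chain of the first basement membranes of the embryo and is scarce in most adult tissues. Its log2 values were 6.47, 6.66 and 6.67 in WTC and 7.63, 7.29 and 7.09 in WTT. They were 6.78, 6.48 and 6.45 in KOC and 7.2, 7.31 and 7.29 in KOT. All 6 treated mice lay above all 6 control mice, with WTT 160 highest. Lama1 rose by 0.74 on the log2 scale in Fra-1+/+ (SE 0.13, adjusted p = 0.00268) and by 0.69 in Fra-1Δ/Δ mice (SE 0.13, adjusted p = 0.00511). LPE called it in Fra-1Δ/Δ mice (adjusted p = 3.36e-04) and not in Fra-1+/+ mice (adjusted p = 0.0219). A call in 1 genotype alone is not a difference between them, and the difference between the responses was -0.04 (95% interval -0.45 to 0.36, adjusted p = 0.997).

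Lama5 (cluster 10490384), the alpha chain of most adult epithelial and vascular basement membranes, rose by little. Its log2 values were 9.95, 9.82 and 9.87 in WTC, 10.08, 10.06 and 10.16 in WTT, 9.75, 9.87 and 9.89 in KOC and 10.02, 10.12 and 10.08 in KOT. The 6 treated mice again lay above the 6 controls. The rise was 1.16-fold in Fra-1+/+ (log2 0.22, SE 0.07, adjusted p = 0.0405) and 1.18-fold in Fra-1Δ/Δ mice (log2 0.24, SE 0.07, adjusted p = 0.0387). Both calls lay close to the threshold. The call in Fra-1+/+ mice was lost under 12 of 23 other settings, among them LPE and the fits without WTC 157, WTC 158, any 1 of the WTT mice, KOC 55, KOT 72 or KOT 81. The call in Fra-1Δ/Δ mice was lost under 11, among them LPE, equal array medians and the fits without WTC 158, KOC 53, KOC 55 or any 1 of the KOT mice.

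The last 2 alpha chains did not pass in either genotype. Lama2 (cluster 10368409), the alpha chain of muscle and peripheral nerve, whose mutation causes a congenital muscular dystrophy, lay between 9.27 and 9.75 over the 12 mice. Its changes were 0.04 in Fra-1+/+ (adjusted p = 0.817) and -0.07 in Fra-1Δ/Δ mice (adjusted p = 0.732), with intervals from -0.18 to 0.26 and from -0.29 to 0.15. Lama4 (cluster 10362538), the alpha chain of vessel walls, had log2 values of 9.44, 9.51 and 9.43 in WTC, 9.40, 9.52 and 9.42 in WTT, 9.55, 9.66 and 9.51 in KOC and 9.42, 9.32 and 9.34 in KOT. The Fra-1+/+ groups overlapped, and the KOT mice lay below the KOC mice. The changes were -0.02 (SE 0.07, adjusted p = 0.887) in Fra-1+/+ and -0.22 (SE 0.07, adjusted p = 0.0547) in Fra-1Δ/Δ mice. The difference between these responses was -0.20 (95% interval -0.41 to 0.02, adjusted p = 0.963). Endothelial markers, by comparison, fell in both genotypes, 7 of 9 in each with 0 risen, and their mean level lay between 11.32 and 11.51 in WTC, 10.66 and 10.94 in WTT, 11.35 and 11.67 in KOC and 10.82 and 11.01 in KOT. Lama2 and Lama4 varied together among mice of a group, with an r of 0.93 after the group means were taken off and 0.59 before.

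Lamb1 (cluster 10395163) and Lamc1 (cluster 10358816), the beta and gamma chains of the most widespread laminins, rose together in Fra-1+/+ mice. The log2 values of Lamb1 were 9.40, 9.34 and 9.13 in WTC and 9.72, 9.85 and 9.71 in WTT, against 9.31, 9.56 and 9.48 in KOC and 9.65, 9.38 and 9.57 in KOT. Those of Lamc1 were 10.06, 9.96 and 9.91 in WTC and 10.26, 10.63 and 10.51 in WTT, against 10.19, 10.32 and 10.09 in KOC and 10.34, 10.31 and 10.32 in KOT. For both chains all WTT mice lay above all WTC mice, while KOT and KOC overlapped. Lamb1 rose 1.38-fold in Fra-1+/+ mice (log2 0.47, SE 0.10, adjusted p = 0.00666) and changed by a log2 of 0.08 in Fra-1Δ/Δ mice (SE 0.10, adjusted p = 0.646). Lamc1 rose 1.41-fold in Fra-1+/+ mice (log2 0.49, SE 0.10, adjusted p = 0.00455) and changed by 0.12 in Fra-1Δ/Δ mice (SE 0.10, adjusted p = 0.459). LPE called neither chain in either genotype. Within an array the value of Lamb1 minus that of Lamc1 moved by -0.02 in Fra-1+/+ (exact permutation test, p = 0.8) and -0.04 in Fra-1Δ/Δ mice (p = 0.7). The r between the chains was 0.86 over the 12 arrays and 0.48 after the group means were taken off.

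These were the chains with the largest differences between the responses of the genotypes. The response of Lamb1 was smaller in Fra-1Δ/Δ mice by 0.39 on the log2 scale, a difference of -0.39 (SE 0.14, 95% interval -0.69 to -0.08, unadjusted p = 0.0181, adjusted p = 0.933, limma). For Lamc1 it was -0.37 (SE 0.14, 95% interval -0.67 to -0.07, unadjusted p = 0.0193, adjusted p = 0.933). Both the PBS and the treated mice entered these differences. For Lamb1, KOC against WTC was 0.16 and KOT against WTT was -0.22. For Lamc1 the same comparisons gave 0.23 and -0.15. Neither difference between responses passed over all clusters, and 0 of the 9 chains did, nor did any of the 23410 clusters (0%), whose lowest adjusted p was 0.117 (limma). With an unadjusted p under 0.05 there were 2 of 9 chains and 1193 of all clusters. LPE called 0 chains and 1.01% of all clusters. Leaving out any 1 mouse kept both differences between responses below 0, from -0.45 to -0.31 for Lamb1 and from -0.47 to -0.29 for Lamc1. The median difference between responses was -0.06 over the chains and -0.01 over all clusters.

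Of 8 markers of smooth muscle, whose cells lie in a basement membrane of their own, 4 rose and 0 fell by limma in Fra-1+/+ mice. Over all clusters, 10.2% rose and 11.3% fell there. In Fra-1Δ/Δ mice 0 rose and 1 fell, beside 7.42% and 7.98% of all clusters. LPE called 2 in Fra-1+/+ mice, Actg2 higher (adjusted p = 0.00883) and Cnn1 lower (adjusted p = 0.00885), and 0 in Fra-1Δ/Δ mice. Changes above 0 were found for 5 of the 8 in Fra-1+/+ and 4 in Fra-1Δ/Δ mice. Tested directly, 0 of the 8 responses differed between the genotypes by limma or LPE, and 1 had an unadjusted p under 0.05. Their mean level lay between 9.87 and 9.97 in WTC, 10.05 and 10.31 in WTT, 9.77 and 10.33 in KOC and 9.85 and 10.15 in KOT. Acta2, smooth muscle actin, rose by 0.61 (adjusted p = 0.0129) in Fra-1+/+ and had a change of 0.21 (adjusted p = 0.379) in Fra-1Δ/Δ mice. The part of these cells in the values of Lamb1 and Lamc1 was not tested.

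**Figure D3:**
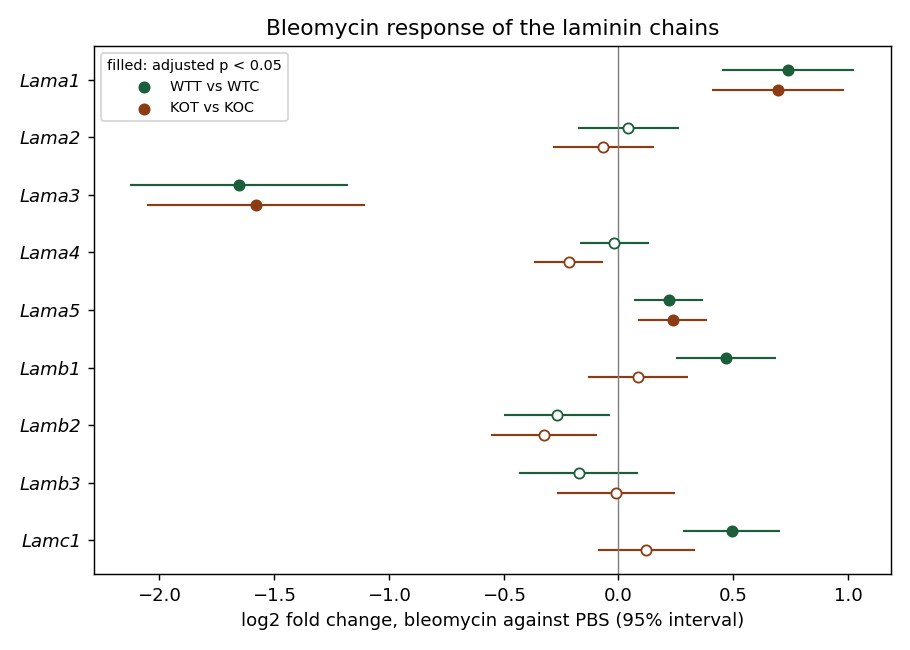
The log2 fold change of each laminin chain with bleomycin is shown with its 95% interval for Fra-1+/+ (WTT against WTC) and Fra-1Δ/Δ mice (KOT against KOC), and filled points passed an adjusted p of 0.05 in limma. Lama3 stands at -1.65 and -1.58, far left of all other chains, Lama1 at 0.74 and 0.69, and Lamb1 and Lamc1 are filled in Fra-1+/+ mice alone.

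Lamb2 (cluster 10588942), the beta chain of the glomerulus and the neuromuscular junction that replaces beta-1 in some mature basement membranes, had lower values with bleomycin. They were 10.22, 10.20 and 10.11 in WTC, 10.07, 9.84 and 9.82 in WTT, 10.17, 10.36 and 10.26 in KOC and 9.89, 10.16 and 9.76 in KOT. In both genotypes all treated mice lay below all controls, WTT 160 and KOT 80 by the least. The changes of -0.27 in Fra-1+/+ (SE 0.11, adjusted p = 0.0979) and -0.32 in Fra-1Δ/Δ mice (SE 0.11, adjusted p = 0.0604) did not pass. Without WTT 160 both passed, the change in Fra-1+/+ mice then being -0.34, and without KOT 80 that in Fra-1Δ/Δ mice was -0.43 and passed. Within an array, Lamb1 minus Lamb2 moved up by 0.74 in Fra-1+/+ and 0.41 in Fra-1Δ/Δ mice, with an exact permutation p of 0.1 each, the smallest possible. Like Lama3, Lamb2 went with the alveolar markers, at an r of 0.88 with the mean of the type 1 list and 0.94 with that of the type 2 list over 12 arrays, or 0.68 and 0.83 after the group means were taken off. This was not limited to Lama3 and Lamb2. For Lamb3 the r with the 2 lists was 0.56 and 0.57 over 12 arrays, or 0.83 and 0.77 after the group means were taken off. The r with the mean of the endothelial markers was 0.84 for Lamb2 and 0.94 for Lama3, or 0.40 and 0.42 after the group means were taken off. The r of Lamb2 with Lama3 was 0.90. Lamc3 (cluster 10471216), a rarer gamma chain outside the 9, was lower with bleomycin in Fra-1+/+ mice by 0.36 (adjusted p = 0.0121), with a change of -0.08 (adjusted p = 0.6) in Fra-1Δ/Δ mice.

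With PBS, no chain differed between the genotypes past the threshold: 0 of 9 by limma and by LPE, beside 0.0128% and 1.79% of all clusters, and 1 of 9 had an unadjusted p under 0.05, beside 2299 of the 23410 clusters. That chain was Lamc1, 0.23 higher in KOC than in WTC (SE 0.10, unadjusted p = 0.0384, adjusted p = 0.489). For 2 of the 9 chains, Lama3 and Lamc1, all KOC mice lay above all WTC mice, beside 16.3% of all clusters without overlap in either direction. The difference of Lama3 was 0.18 (95% interval -0.30 to 0.65, adjusted p = 0.856). The median over the chains was 0.11, with 6 of 9 above 0, and that over all clusters was -0.01.

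With bleomycin, 0 of 9 chains differed between KOT and WTT by limma or LPE, beside 0.0427% and 0.705% of all clusters, and 1 had an unadjusted p under 0.05, beside 2480 of the 23410 clusters. That chain was Lamb1, whose KOT mice all lay below the WTT mice, at -0.22 (SE 0.10, unadjusted p = 0.0439, adjusted p = 0.458), and such a lack of overlap was found in 1 of 9 chains and 15.7% of all clusters. Lamc1, by contrast, overlapped, because WTT 160 at 10.26 lay below all KOT mice, and its difference was -0.15 (adjusted p = 0.623). Lama1 was at -0.07 (95% interval -0.36 to 0.21, adjusted p = 0.88). Lama3 was 0.25 higher in KOT (95% interval -0.23 to 0.72, adjusted p = 0.722), and this turned to -0.06 without KOT 80. These comparisons share their groups with those above, so they are no separate evidence.

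Other genes of basement membranes, among them those of nidogens and type IV collagen, were taken as a list of 20 genes. Of these, 8 rose with bleomycin and 5 fell in the Fra-1+/+ lungs by limma, beside 10.2% and 11.3% of all clusters. Without Fra-1, 5 rose and 5 fell, beside 7.42% and 7.98% of all clusters. LPE called 9 and 4 in either direction, beside 7.94% and 8.09%. The median log2 fold change was 0.07 and 0.01. The broad type IV collagen chains Col4a1 and Col4a2 rose, Col4a1 by 0.90 in Fra-1+/+ (adjusted p = 2.16e-04) and by 0.49 in Fra-1Δ/Δ mice (adjusted p = 0.00555), and Col4a2 by 0.79 and 0.35. Nid1, nidogen 1, which links laminin gamma-1 to type IV collagen, rose by 0.69 (adjusted p = 0.00203) and 0.40 (adjusted p = 0.0376). Col15a1 (0.77 and 0.52) and Col18a1 (0.71 and 0.48) rose as well, and Nid2, Tinagl1 and Smoc2 passed in Fra-1+/+ mice alone, with no called difference between the responses.

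The genes of this list that fell included Col4a3, Col4a4 and Col4a5, the chains of the type IV collagen of the alveolar and glomerular walls. Col4a3 fell by 0.76 in Fra-1+/+ (adjusted p = 0.00135) and 0.85 in Fra-1Δ/Δ mice (adjusted p = 0.0013), Col4a4 by 0.80 and 0.74, and Col4a5 by 0.35 and 0.40. Ntn4, a netrin that binds laminin gamma-1 and loosens laminin sheets, fell by 0.78 (adjusted p = 0.00326) and 0.76 (adjusted p = 0.00535). Npnt, nephronectin, a ligand of integrin alpha-8, fell by 0.74 (adjusted p = 0.00282) and 0.82 (adjusted p = 0.00242). Hspg2 (perlecan) and Agrn (agrin), the heparan sulfate proteoglycans, had changes of 0.11 and -0.04 in Fra-1+/+ and of 0.02 and -0.01 in Fra-1Δ/Δ mice, none past the test.

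Among 9 receptor genes of laminins, Fra-1+/+ mice had 1 risen and 3 fallen and Fra-1Δ/Δ mice 1 risen and 2 fallen, with 0 called by LPE in both. Over all clusters, 10.2% rose and 11.3% fell by limma in Fra-1+/+ mice, and 7.42% and 7.98% in Fra-1Δ/Δ mice. Itgb4, integrin beta-4, the hemidesmosome receptor of the Lama3 trimer, lay at 8.80, 8.51 and 8.64 in WTC, 9.11, 9.05 and 9.09 in WTT, 8.67, 8.55 and 8.52 in KOC and 9.16, 9.17 and 9.18 in KOT. All treated mice lay above all controls. The rise was 0.44 on the log2 scale with Fra-1 (SE 0.08, adjusted p = 0.00289) and 0.59 without it (SE 0.08, adjusted p = 0.00112), while Lama3 fell. Itga6, its alpha partner, changed by 0.11 (adjusted p = 0.508) and -0.17 (adjusted p = 0.326). Itga1, the alpha-1 integrin that also binds collagen, fell by 0.61 (adjusted p = 0.00143) and 0.57 (adjusted p = 0.00296), and Dag1, dystroglycan, by 0.41 (adjusted p = 0.0049) and 0.43 (adjusted p = 0.00569). Bcam, a receptor of Lama5, fell by 0.35 in Fra-1+/+ mice (adjusted p = 0.0305) and had a change of -0.23 (adjusted p = 0.155) in Fra-1Δ/Δ mice. Of 8 genes of the hemidesmosome, Itgb4 and Plec (plectin, its link to keratin) rose in both genotypes and Dst fell in Fra-1+/+ mice. In the same lungs 6 of 9 measured markers of transitional epithelium, the stressed state between type 2 and type 1 cells, rose in each genotype, Krt8 by 0.57 and 0.61, and 1 fell in Fra-1+/+ and 0 in Fra-1Δ/Δ mice. Their mean level lay between 9.81 and 10.005 in WTC, 10.40 and 10.82 in WTT, 9.81 and 9.88 in KOC and 10.53 and 10.59 in KOT, and their part in the rise of Itgb4 was not tested.

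**Figure D4:**
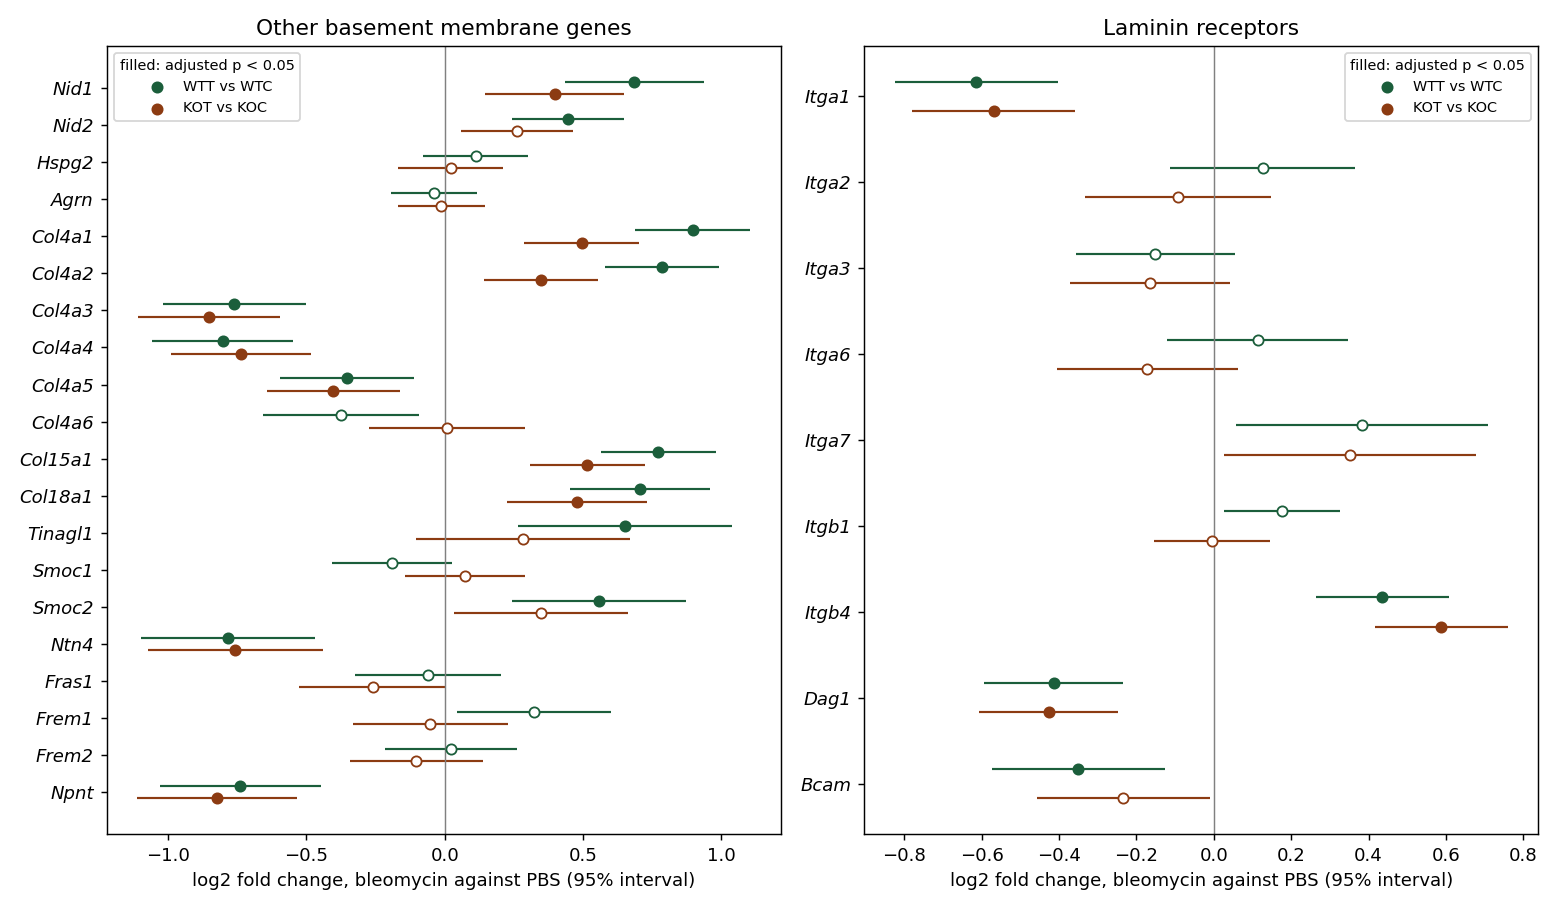
The log2 fold change with bleomycin and its 95% interval are shown for 20 other basement membrane genes (left) and 9 laminin receptor genes (right) in Fra-1+/+ and Fra-1Δ/Δ mice, with filled points past an adjusted p of 0.05 in limma. Col4a1 at 0.90 and 0.49 and Col4a4 at -0.80 and -0.74 stand on opposite sides of 0 in both genotypes, and on the right Itgb4 stands above 0 and Itga1 and Dag1 below.

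For each chain, the genes with the most similar pattern over the 12 arrays were sought by Pearson r among 16971 clusters with a mean of at least 6 on the log2 scale. The level of Lama3 was nearest to Myo5b (r = 0.99), a motor of apical transport, to Slc4a5, a bicarbonate transporter, and to Col4a4, each at 0.99, and these fell with bleomycin as it did. Lama1 was nearest to Fcrls (0.96), a gene of macrophages and microglia that rose by 1.60 and 1.26. Lamb1 was nearest to Tmem263 (0.96), which rose by 0.44 in Fra-1+/+ mice and changed by 0.02 in Fra-1Δ/Δ mice, and Lamc1 to Wipi1 (0.96) and Olfml2b (0.95), the latter at 0.78 and 0.07. Lama5 was nearest to Dnpep (0.97), Lamb2 to Btbd7 (0.97), Lama4 to Cnrip1 (0.95), Lamb3 to Vsig10 (0.92) and Lama2 to Slc8a1 (0.90). These points share arrays and normalization, the highest of many r is high by selection, and nothing about shared control follows.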

How the data were processed

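Left lung RNA of 12 mice in 4 groups of 3 was hybridised to Affymetrix MoGene 1.0ST v1 arrays. The authors used Affymetrix Power Tools (version not given in the sources used here) for RMA with quantile normalization over all arrays and median polish, and deposited 1 log2 value per cluster for 35556 clusters. Array medians lay between 7.14 and 7.22. RMA summaries compress large changes, and the authors' filter on detection above background was not used here. The arrays' number limits precision, and no value depends on a read depth.

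From these values 1 linear model with a mean per group (8 residual degrees of freedom) was fitted by limma 3.58.1 in R 4.3.3 to the 23410 clusters with a symbol in GEO's probe table, and p-values were Benjamini-Hochberg adjusted over them, two-sided. LPE was written anew (100 bins, spline of 10 degrees of freedom). A fit was tested on simulated data first. Groups came from the labels. Each member has 1 cluster with its symbol alone. Named are the members, up to 4 genes per list and comparison with the smallest p, the nearest patterns, and some further list genes (such as Hspg2, Agrn, Itga6 and Bcam) that were picked for their role after their values were seen. The members, lists and rules were chosen with earlier results of these data known. The paper calls the bleomycin-treated genotypes littermates, but no label ties a mouse to a litter. The genome build of the arrays' annotation was not given in the sources used here, so gene coordinates are limited to RefSeq promoters. Alternatives were LPE, a threshold of 0.01, the 6 arrays of a comparison alone, robust trended moderation, array weights, equal medians, cyclic loess, a mean of at least 6, all clusters, a term for animal number, the mean of a gene's clusters, and each array left out.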

Additional observations from a re-analysis of the deposited data

How the results depend on the processing

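Under 11 other settings and with each of 12 arrays left out, the fall of Lama3 in both genotypes and the rise of Lama1 in Fra-1Δ/Δ mice passed throughout, and the rises of Lama1, Lamb1 and Lamc1 in Fra-1+/+ mice were lost under LPE alone. The number of chains past the threshold in Fra-1+/+ mice was 1 under LPE, and 4 to 5 with 1 array left out. In Fra-1Δ/Δ mice it was 5 with array weights and 5 when only clusters reaching a mean of 6 in some group were tested, which added Lama4 and Lamb2 as lower, and 2 to 4 with 1 array left out. It was 0 under every setting for both genotype comparisons and the difference between responses. The mean over a gene's clusters changed nothing, since each chain has 1 cluster. No paired analysis was possible because the groups share no animal numbers. The other reversals were of values that had not passed. Bleomycin in Fra-1+/+ gave -0.057 for Lama2 under LPE, and with 1 array left out -0.025 to 0.080 for Lama2 and -0.056 to 0.0057 for Lama4. In Fra-1Δ/Δ it gave 0.0018 for Lamb3 under cyclic loess, and leaving out arrays -0.15 to 0.030 for Lama2 and -0.16 to 0.085 for Lamb3. KOC against WTC gave 0.026 for Lama1 under cyclic loess, 0.017 with equal medians and 0.10 with animal number, 0.0013 for Lama5 with equal medians, and -0.13 to 0.032 for Lama1 leaving out arrays. KOT against WTT gave 0.12 for Lama1 and -0.036 for Lamb2 with animal number and -0.012 for Lamb3 under LPE, and leaving out arrays -0.20 to 0.071 for Lama1, -0.062 to 0.48 for Lama3, -0.052 to 0.0029 for Lama5, -0.083 to 0.11 for Lamb2 and -0.082 to 0.16 for Lamb3. The difference between responses gave 0.18 for Lama1 under LPE and 0.022 with animal number, -0.11 for Lama3 with array weights, and for Lama5 -0.0011 under LPE, -0.0054 with array weights, -0.033 with equal medians and -0.017 with animal number. Leaving out arrays it ran from -0.17 to 0.10 for Lama1, -0.24 to 0.31 for Lama3, -0.026 to 0.048 for Lama5 and -0.17 to 0.031 for Lamb2. The cause of these changes was not tested. The term for animal number in effect sets KOC against WTC 76 alone.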

Other observations

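Markers of heart muscle, whose basement membranes also hold Lama2, fell in 6 of 8 cases in Fra-1+/+ mice (median log2 fold change -1.23) and passed in 0 of 8 in Fra-1Δ/Δ mice by limma (median -0.45), where LPE called 4 and the unadjusted p was under 0.05 for 0. Of the 8 differences between responses 0 passed by limma, LPE called 1, and 4 had an unadjusted p under 0.05. Their mean level lay between 9.90 and 10.41 in WTC, 8.44 and 9.17 in WTT, 9.02 and 10.76 in KOC and 9.52 and 9.88 in KOT. Among 6 leukocyte markers 2 were higher and 2 lower past the test in WTT, and 2 higher and 1 lower in KOT, each against the PBS mice. By limma, resident fibroblast markers fell in 2 of 6 cases in each genotype, and mesothelial markers in 1 of 5, with 0 risen. The share lower among the 23410 tested was 11.3% with Fra-1 and 7.98% without it. Mesothelial changes were above 0 for 3 of 5 in each genotype. LPE called 1 of the 5 with Fra-1, Msln, as higher (adjusted p = 8.83e-07), and 0 without it. In limma Msln had a log2 change of 0.80 with Fra-1 (adjusted p = 0.0846). Neither of the 2 Schwann cell markers measured passed in either genotype, and 1 of 5 adipocyte markers fell in each.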
